A study of Caenorhabditis elegans with 4 samples.

Results

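The wide HTP-3 domains are the nuclear peaks of the combined peak list that measured 1000 bp or more and overlapped, by at least 1 bp, a called peak of each ChIP replicate. There were 584 of them among 11713 nuclear combined peaks. The set against which they are described is the 2061 narrow shared peaks, which also overlapped both replicates but measured under 1000 bp. The domains were chosen by their width in the combined list and by their support in both replicates, so these values are descriptions and were not tested. Of all nuclear combined peaks, 22.6% overlapped both replicates, 5.60% measured 1000 bp or more and 4.99% met both conditions.

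HTP-3 was profiled by chromatin immunoprecipitation and sequencing (ChIP-seq) in whole Caenorhabditis elegans hermaphrodites of the strain fem-2(b245), genotype fem-2(b245)III, kept at 20 °C. There were 2 libraries of HTP-3 ChIP DNA and 2 of input DNA, with a replicate 1 and a replicate 2 of each. All 4 samples carry the fem-2 allele, so the lists hold no wild-type comparison; fem-2 encodes a phosphatase of the sex determination pathway. All samples were crosslinked in EGS for 20 min and then in EGS with formaldehyde for 10 min, and the ChIP used 5 µg of affinity-purified antibody. The stage label is young adult with a germline, whereas the growth protocol describes harvest of gravid adults, and the extract was of whole animals, in which germline and somatic chromatin were not separated. Whether the replicates were separate cultures is not stated. The files give peak intervals with 1 score each, and the read depth is unknown.

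HTP-3 belongs to the HORMA-domain proteins and is a component of the meiotic axis, the protein core from which loops of chromatin extend during meiotic prophase. It recruits the other HORMA-domain axis proteins, HIM-3, HTP-1 and HTP-2, and is required in the worm germline for the programmed DNA breaks that start recombination, for pairing and for assembly of the synaptonemal complex. A peak caller reports the stretches in which ChIP reads exceed its background model. A wide peak is therefore a long stretch called without interruption, and its edges depend on the caller.

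Since the domains were chosen by width, they necessarily held a larger share of the called sequence than of the calls. They were 22.1% of the shared peaks (584 of 2645, 95% Wilson interval 20.5 to 23.7) and spanned 1.09 Mb, which was 48.8% of the length of all shared peaks and 21.8% of the length of the combined list. Their median width was 1464 bp (quartiles 1159 and 2013 bp), and the widest measured 14219 bp. The narrow shared peaks spanned 1.14 Mb and had a median width of 524 bp (quartiles 409 and 682 bp). Most domains lay near the lower limit: 310 measured 1000 to 1499 bp, 125 measured 1500 to 1999 bp, 90 measured 2000 to 2999 bp, 43 measured 3000 to 4999 bp and 16 measured 5000 bp or more. The 16 in the widest class held 11.0% of the domain length.

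The limit of 1000 bp cut through a continuous range. The 3 domains just inside it were on II at 11974045 to 11975045 (1001 bp), on II at 11743270 to 11744274 (1005 bp) and on III at 3894843 to 3895847 (1005 bp), with combined scores of 21.44, 13.11 and 11.53. The 3 shared peaks just outside it were on IV at 7546822 to 7547820 (999 bp), on I at 6456494 to 6457491 (998 bp) and on I at 5133765 to 5134761 (997 bp), with combined scores of 24.22, 13.89 and 8.44. All coordinates are on the WormBase WS220 build. Genes at these positions were not analysed here, since no annotation of that build was used.

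The 10 widest domains were on II (4), III (2), V (2), I (1) and X (1), and 5 of them stood in the middle part when each chromosome is cut into 3 equal parts. The widest was on X at 16929266 to 16943484, near the right end of the chromosome. Replicate 1 covered 99.1% of its 14219 bp with 3 peaks, and replicate 2 covered 97.4% with a single peak of 14107 bp. Its combined score was 112.14, which 1.43% of combined peaks exceeded. In replicate 1 it reached 3100.00, a value that 36 of the 3295 replicate 1 peaks share and 3 exceed, so that the rank of these peaks among themselves is not resolved. In replicate 2, 35 of 4006 peaks share the same value and 3 exceed it. Here the widest domain scored 798.65, which 12.1% of replicate 2 peaks exceeded, the lowest replicate 2 rank among the 10 widest.

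The domain second in width, on II at 10541727 to 10554319 (12593 bp), lay inside the widest replicate 2 peak that met any shared peak, 22600 bp. Replicate 1 covered 96.5% of it with 2 peaks, 1 of them 11362 bp long. The replicate 2 peak reached 9795 bp beyond the right edge of the domain. Over that stretch the combined list was broken into separate peaks, 3 of which were themselves wide domains, so that this replicate 2 peak held a run of 4 domains.

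The next domains by width were on III at 3863851 to 3872829 (8979 bp, combined score 144.36), on II at 5332438 to 5341217 (8780 bp, 79.11) and on II at 1144370 to 1153141 (8772 bp, 49.17). Replicate 1 covered 96.7%, 93.8% and 62.5% of them, with 4, 2 and 3 peaks. Replicate 2 covered all 3 completely. The domain on II near 1.1 Mb was therefore continuous in replicate 2 and in the combined list and was called only in part by replicate 1.

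Some wide domains were single blocks in all 3 lists and others were not. On V at 3434497 to 3441185 (6689 bp), 1 replicate 1 peak of 6786 bp and 1 replicate 2 peak of 7351 bp each contained the whole domain, and its nearest shared neighbour was 43143 bp away. On V at 9338452 to 9344683 (6232 bp), 1 replicate 1 peak of 6244 bp covered 99.6% of the domain and 1 replicate 2 peak of 7308 bp covered all of it. Both domains had the tied score of 3100.00 in both replicates. In contrast, the domain on II at 7893382 to 7900653 (7272 bp) was broken into 8 replicate 1 peaks, none over 970 bp, which covered 62.8% of it. It had the lowest scores of the 10 in the combined list (12.63, exceeded by 32.5% of combined peaks) and in replicate 1 (293.64, exceeded by 32.1%). Replicate 2 called it inside 1 peak of 10570 bp with a score of 1383.86, exceeded by 5.17%.

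The remaining domains of the 10 were on I at 7078918 to 7086879 (7962 bp) and on III at 7728301 to 7734760 (6460 bp). The domain on I had the tied score in both replicates, and replicate 1 covered 94.6% of it with 3 peaks. The domain on III was called in 4 pieces by replicate 1 (62.0% covered) and lay inside a replicate 2 peak of 17951 bp. Its nearest shared neighbour was 43 bp away. In all, replicate 1 covered over 90% of 7 of the 10 widest domains, and replicate 2 covered 9 of the 10 completely. IV had none of the 10; its widest domain, at 4467816 to 4473905, measured 6090 bp and had the tied score in both replicates.

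**Figure D1:**
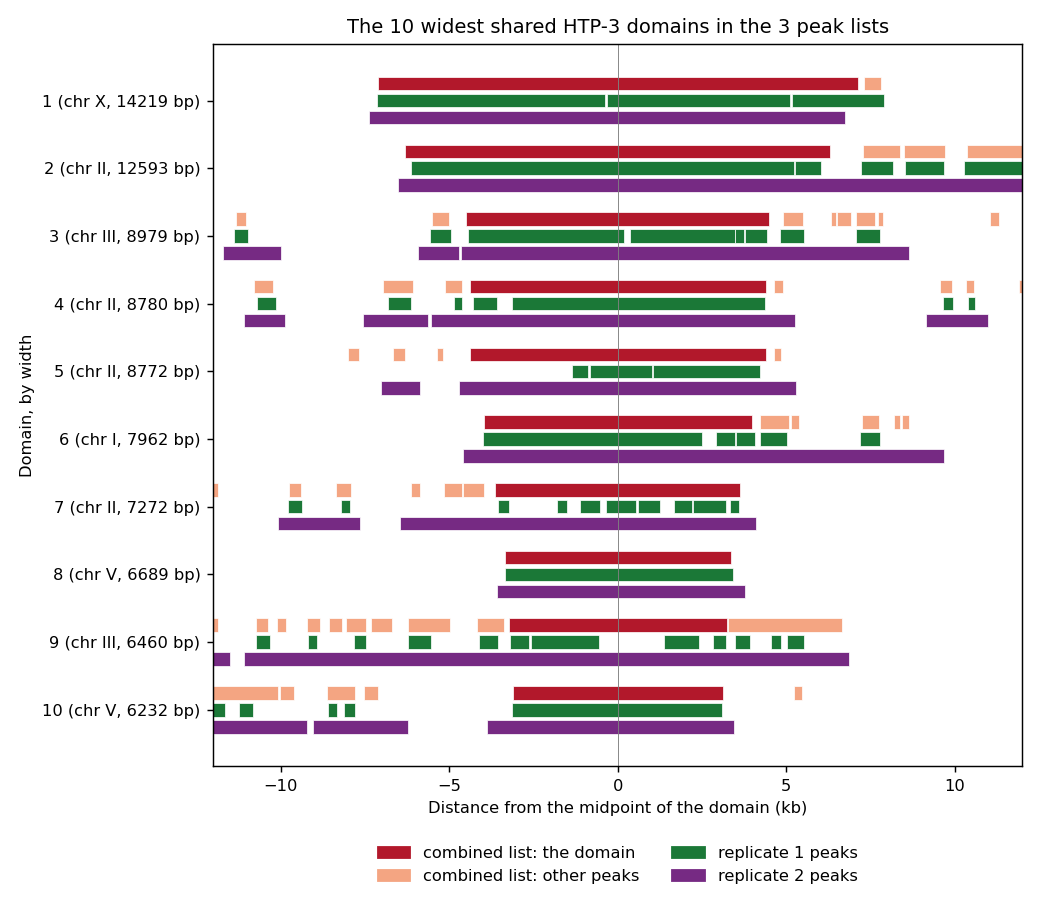
The 10 widest shared domains, ordered by width from top to bottom, with called peaks drawn to scale by distance from the domain's midpoint (kb, cut at 12 kb on each side). The upper bar of each row is the combined list (the domain in dark red, other combined peaks in light red), the middle bar replicate 1 and the lower bar replicate 2; domain 8, on V, is 1 block in every list, and domain 7, on II, meets 8 replicate 1 peaks.

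The width that defines the domains is that of the combined list, and the replicate lists were examined for peaks of the same width. A replicate 1 peak of 1000 bp or more met 42.3% of the wide domains (247 of 584, interval 38.4 to 46.3) and 2.72% of the narrow shared peaks (56 of 2061, interval 2.10 to 3.51). A replicate 2 peak of that width met every wide domain and 97.0% of the narrow shared peaks (2000 of 2061), so this criterion does not set the wide domains apart in replicate 2. The median width over the whole list was 478 bp in replicate 1 and 1455 bp in replicate 2. The widest replicate 1 peak in a domain had a median width of 889 bp for wide domains and 458 bp for narrow shared peaks. The widest replicate 2 peak had a median of 4082 bp for wide domains and 1822 bp for narrow shared peaks. In both replicates the median was larger over wide domains than over narrow shared peaks.

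Most wide domains (388 of 584) met 1 replicate 1 peak, and the others met several. A peak counted if it overlapped the domain by at least 1 bp, so it could lie partly outside. For 56.5% of wide domains, all replicate 1 peaks met lay inside the domain. Of the wide domains, 33.6% met 2 or more replicate 1 peaks (196 of 584, interval 29.9 to 37.5) and 10.1% met 3 or more, against 1.94% (40 of 2061, interval 1.43 to 2.63) and 0.0485% of the narrow shared peaks. The share with 2 or more was higher for wide domains on all 6 chromosomes. It was largest on II (45.3%) and III (40.0%) and smallest on I (22.3%). A longer interval has more room for several peaks, and within the wide domains the share was 17.7% at 1000 to 1499 bp, 35.2% at 1500 to 1999 bp, 63.3% at 2000 to 2999 bp, 67.4% at 3000 to 4999 bp and 68.8% at 5000 bp or more. Even in the widest class, 5 of the 16 domains met exactly 1 replicate 1 peak.

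Coverage by replicate 1 did not thin out in wider domains. Replicate 1 peaks covered 66.7% of the domain length at 1000 to 1499 bp, 69.2% at 1500 to 1999 bp, 73.0% at 2000 to 2999 bp, 78.4% at 3000 to 4999 bp and 89.2% at 5000 bp or more. Over all wide domains they covered 72.7% of the length, and over the narrow shared peaks 76.6%. Counted per peak, the median share covered was 71.5% for wide domains and 83.3% for narrow shared peaks. Less than 50% of the interval was covered in 23.3% of wide domains (136 of 584, interval 20.0 to 26.9) and in 10.9% of narrow shared peaks (224 of 2061, interval 9.60 to 12.3).

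**Figure D2:**
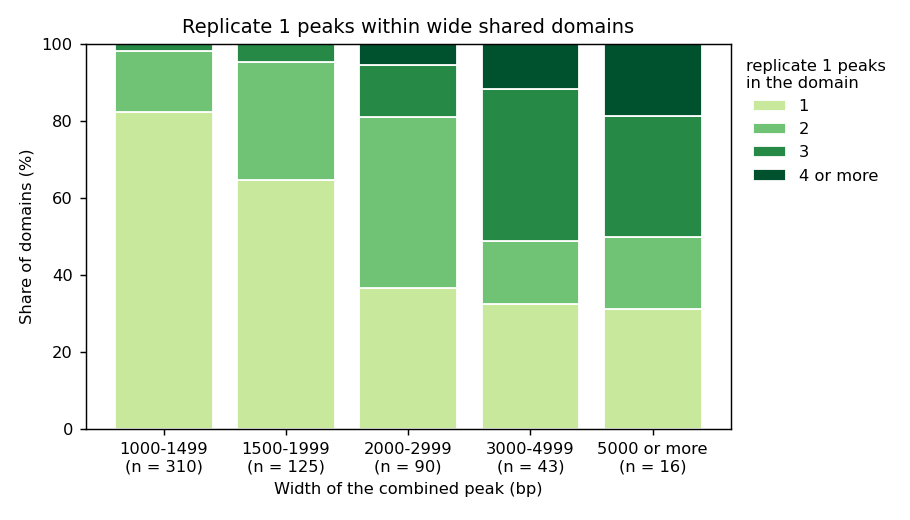
Share of wide shared domains (%) that met 1, 2, 3 or at least 4 replicate 1 peaks, by width of the combined peak (bp, 5 classes with the number of domains under each bar). Domains with a single replicate 1 peak are most of the 1000 to 1499 bp class, while 68.8% of domains of 5000 bp or more met 2 or more.

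Replicate 2 peaks mostly contained the whole domain, and some met several domains. It covered 99.2% of the domain length. Of the wide domains, 94.2% (550 of 584, interval 92.0 to 95.8) lay entirely inside 1 replicate 2 peak, while 3 domains met 2. For narrow shared peaks, replicate 2 covered 99.66% of the length, and 99.03% (2041 of 2061) lay entirely inside 1 replicate 2 peak. Lying inside a replicate 2 peak therefore does not set the wide domains apart. The replicate 2 peak extended a median of 755 bp beyond the left edge and 843 bp beyond the right edge of a wide domain, and 388 and 428 bp beyond those of a narrow shared peak. Each domain was assigned to the first replicate 2 peak that it met, so the second peak of the 3 domains that met 2 was not counted. By this rule the 584 domains met 493 distinct replicate 2 peaks. Of these, 426 met 1 domain and 67 met 2 or more, the latter together 27.1% of the domains (158 of 584). The same count is not given for narrow shared peaks, so joining is not shown to be particular to wide domains. The replicate 2 peak with most domains, on V at 8413238 to 8427532 (14295 bp), held 5.

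Scores were compared only within a list, as the percent of that list's peaks that scored higher. The scale of the scores is not stated and how the combined list draws on the 2 ChIP libraries is not given, so its ranks are not separate evidence from those of the replicates, and none were tested. In the combined list, the median wide domain was exceeded by 9.33% of peaks (score 40.82) and the median narrow shared peak by 12.5% (score 31.99). The lists differ in length and make-up, so the ranks are not compared between lists. A domain took the best score of the replicate peaks it met, and 33.6% of wide domains met several replicate 1 peaks, against 1.94% of narrow shared peaks. Combined peaks that met the same replicate peak each took its score, so 1 replicate peak could count several times. In replicate 1 the median wide domain was exceeded by 17.4% of peaks and the median narrow shared peak by 50.3%; in replicate 2 these values were 7.95% for wide domains and 27.8% for narrow shared peaks. In both replicates the order was the same on all 6 chromosomes. In the combined list it held on 4 of 6. On III and V the wide domains had the lower median combined score, 29.6 against 30.9 for narrow shared peaks on III and 24.9 against 30.5 on V.

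**Figure D3:**
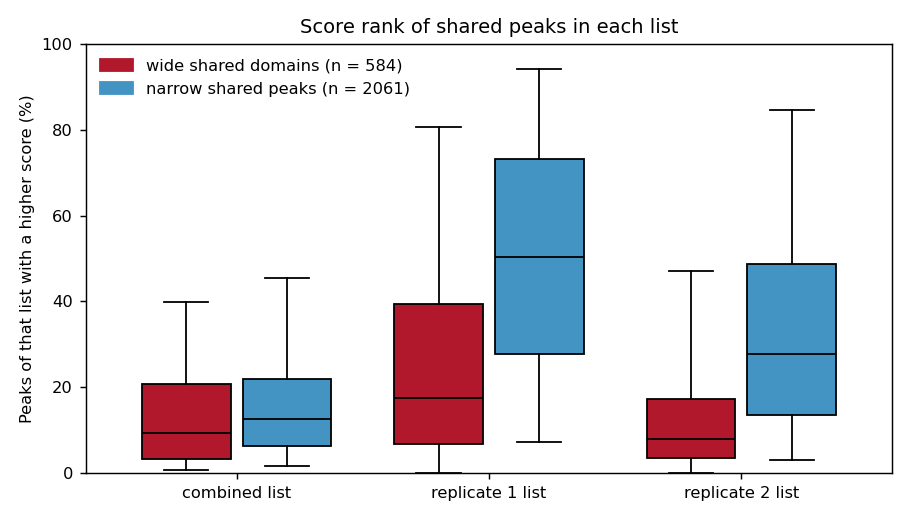
Percent of a list's nuclear peaks that scored higher than the peak, for wide shared domains (red, n = 584) and narrow shared peaks (blue, n = 2061), in the combined, replicate 1 and replicate 2 lists; 0 is the highest-scoring peak. Boxes span the quartiles with the median as a line, and whiskers run from percentile 5 to percentile 95; the medians of wide domains are 9.33%, 17.4% and 7.95%.

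Wide domains ranged over nearly the whole score range. Combined scores ran from 2.75 to 161.72 (quartiles 20.1 and 84.9). The 10% of the combined list with the highest scores included 51.2% of the wide domains (299 of 584, interval 47.2 to 55.2) and 40.4% of the narrow shared peaks (832 of 2061, interval 38.3 to 42.5). The same share of replicate 1 included 33.0% of wide domains and 7.28% of narrow shared peaks, and that of replicate 2 included 57.4% of wide domains and 18.2% of narrow shared peaks. The tied score of 3100.00 was the best score in replicate 1 for 33 wide domains and 14 narrow shared peaks, and in replicate 2 for 41 wide domains and 25 narrow shared peaks. Only 36 replicate 1 peaks and 35 replicate 2 peaks had that score, so some of them were counted more than once.

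Width and score were only loosely related among the domains. Across the 584 domains the Spearman correlation of width was 0.167 with combined score, 0.370 with replicate 1 score and 0.334 with replicate 2 score. The lists may share reads, and neighbouring domains can share a replicate 2 peak, so the correlations are descriptions. The best scores in the 2 replicates had a Spearman correlation of 0.537, while the widths of the widest replicate 1 and replicate 2 peak had 0.189. By class, the median combined score was 32.8 at 1000 to 1499 bp, 44.8 at 1500 to 1999 bp, 46.3 at 2000 to 2999 bp, 46.8 at 3000 to 4999 bp and 69.3 at 5000 bp or more, with broad quartiles (17.4 and 77.8 in the first class, 50.1 and 100.9 in the last).

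The highest-scoring domain of each chromosome was not its widest. The highest combined score of all domains was 161.72, on II at 5055005 to 5056987 (1983 bp). The others were on I at 2070574 to 2072200 (score 158.6, 1627 bp), on III at 7207501 to 7208997 (154.87, 1497 bp), on X at 16611191 to 16613007 (154.02, 1817 bp), on V at 7774978 to 7777282 (147.85, 2305 bp) and on IV at 14824423 to 14825501 (145.93, 1079 bp). No more than 5.95% of the replicate 1 list, and 4.19% of the replicate 2 list, exceeded any of the 6. Replicate 1 covered the domain on X completely with 1 peak, and only 46.9% of that on V.

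Wide domains were distributed unevenly among chromosomes. III carried the most, 130 domains or 9.43 per Mb, followed by I with 6.83 per Mb (103 domains), IV with 6.24 (109), II with 5.63 (86), V with 4.16 (87) and X with 3.90 (69). The share of shared peaks that were wide varied less, from 25.8% on III (interval 22.2 to 29.8) to 18.4% on X (interval 14.8 to 22.6), and the intervals of all 6 chromosomes overlapped. X held 11.8% of the wide domains (69 of 584, interval 9.44 to 14.7) and 14.9% of the narrow shared peaks (307 of 2061, interval 13.4 to 16.5), intervals that also overlap. The median width of wide domains was 1600 bp on X and 1457 bp on the autosomes.

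Along the autosomes, 49.7% of wide domains lay in the middle part (256 of 515, interval 45.4 to 54.0) and 44.6% of narrow shared peaks (782 of 1754, interval 42.3 to 46.9). The chromosomes did not go one way. The middle part held 56.9% of wide domains and 42.0% of narrow shared peaks on III, 55.2% of wide domains and 45.2% of narrow shared peaks on V, and 54.4% of wide domains and 45.1% of narrow shared peaks on I. On X it held 36.2% of wide domains and 29.3% of narrow shared peaks. On II the order was turned round, with 40.7% of wide domains (35 of 86, interval 30.9 to 51.3) and 51.1% of narrow shared peaks (166 of 325, interval 45.7 to 56.5), and on IV it held 39.4% of wide domains and 40.4% of narrow shared peaks. Of these 6 comparisons, the intervals were separate on III (48.3 to 65.1 for wide domains and 37.1 to 47.0 for narrow shared peaks) and overlapped on the others. The intervals cover counting error and treat neighbouring domains as independent; no test of position was made. With support asked of replicate 2 only, the autosomal shares were 48.93% for wide and 48.91% for narrow peaks.

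Counts of wide domains varied along the chromosomes. With each chromosome cut into 10 equal parts numbered from the left, 20 of the 109 domains on IV lay in part 3 and 22 in part 7. These parts held 29 and 35 of the 369 narrow shared peaks, which were most frequent in part 5 (14 wide domains and 61 narrow shared peaks). The parts named were picked after the counts were seen, and no interval was computed for them. Parts 3 and 7 held 18.3% and 20.2% of the wide domains on IV. Other chromosomes had parts with similar shares. Part 4 of I held 20.4% of the wide domains and 9.97% of the narrow shared peaks there. Part 5 of III held 20.0% of the wide domains and 14.4% of the narrow shared peaks there. Domains in runs count singly, and a run of 5 domains lay in part 3 of IV. On II the left part held 11 domains, the middle 35 and the right 40, and no domain lay in part 2 of 10, where 12 narrow shared peaks were called. On I the left, middle and right parts held 30, 56 and 17 domains.

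**Figure D4:**
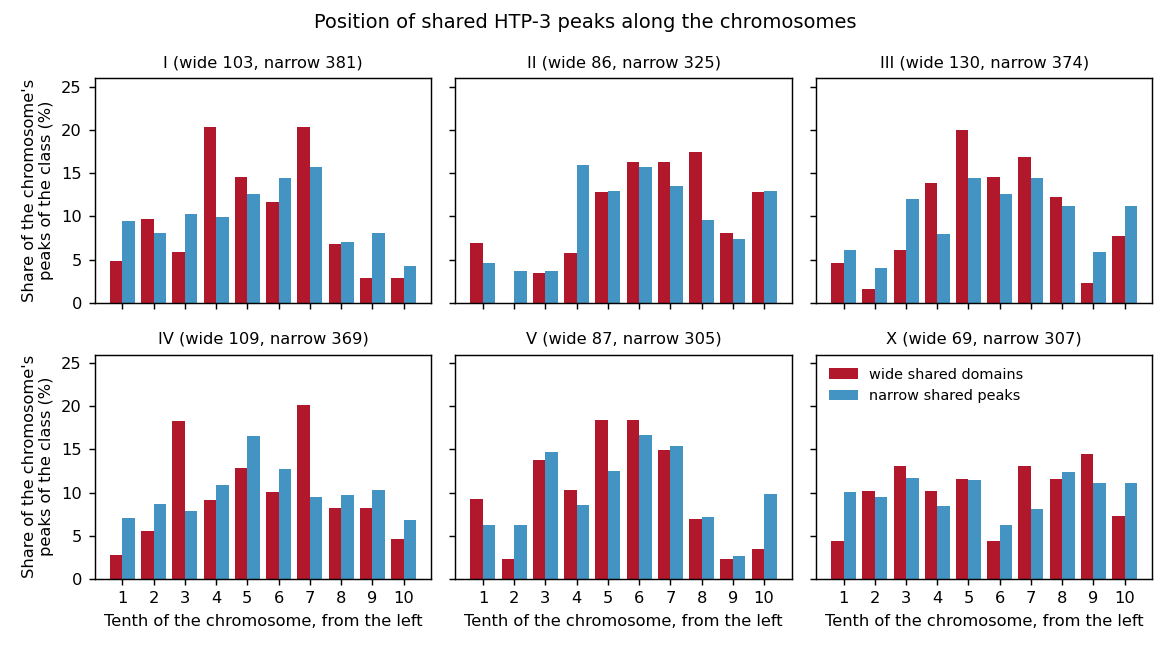
Share of each chromosome's wide shared domains (red) and narrow shared peaks (blue), in percent, in each of 10 equal parts of the chromosome, numbered from the left end; counts of both classes stand above each panel. On IV, parts 3 and 7 hold 20 and 22 wide domains, on II there is none in part 2, and on X the middle part holds 25 of 69 wide domains.

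Position was also counted by score. The wide domains were cut into 4 equal classes by combined score. Among those on autosomes, the lowest class (score up to 20.08) had 61.2% in the middle part (82 of 134, interval 52.7 to 69.0), and the 3 higher classes had 43.5%, 46.0% and 47.6%. Narrow shared peaks cut into 4 classes of their own had 52.2%, 45.5%, 46.7% and, in the highest class, 33.3% (141 of 423, interval 29.0 to 38.0). The highest class of wide domains had 47.6% (60 of 126, interval 39.1 to 56.3). Its scores began at 84.95 and those of the highest narrow class at 54.77. The classes are therefore not matched by score, and whether score relates to the difference in position was not tested. This cut was chosen after the values were seen.

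Wide domains lay close to other shared peaks. The gap from a wide domain to the nearest shared peak, measured edge to edge, had a median of 1.07 kb (quartiles 0.188 and 6.92 kb), and that from a narrow shared peak 3.11 kb (quartiles 0.664 and 17.98 kb). Another shared peak stood within 2 kb of 60.8% of wide domains (355 of 584, interval 56.8 to 64.7) and of 43.0% of narrow shared peaks (887 of 2061, interval 40.9 to 45.2). The share was higher for wide domains on all 6 chromosomes, from 66.0% on I (narrow 48.8%) to 52.2% on X (narrow 34.2%). Against only those narrow shared peaks that scored at least as high as the lower quartile of wide domains, of which 37.3% had such a neighbour, the difference was larger. The wide domains were not cut by score there. Where combined peaks under 500 bp apart were first joined, it was smaller, 31.7% for wide and 26.7% for narrow peaks.

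**Figure D5:**
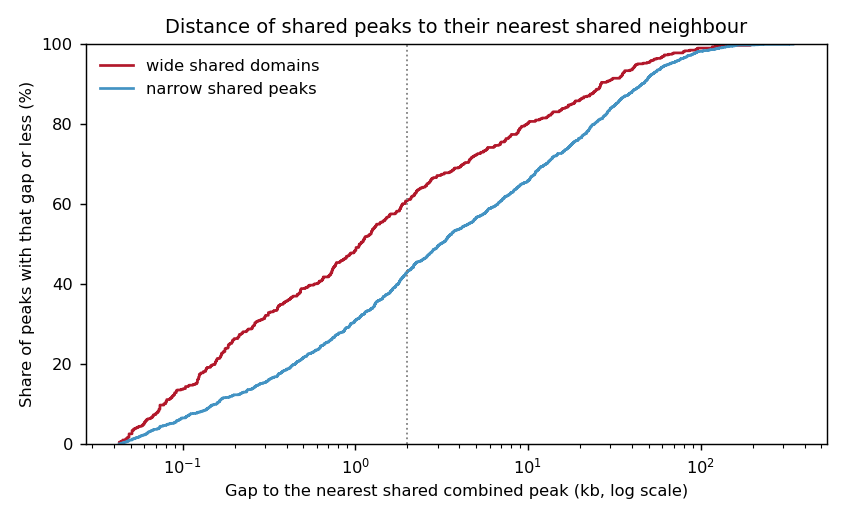
Cumulative share (%) of wide shared domains (red) and narrow shared peaks (blue) whose gap to the nearest shared combined peak is at most the distance on the x axis (kb, log scale). The dotted line marks 2 kb, where the curves stand at 60.8% for wide domains and 43.0% for narrow shared peaks.

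The share with a near neighbour was also counted by score class. Within 2 kb of a shared neighbour lay 65.1%, 66.4%, 68.5% and 43.2% of the wide domains in the 4 classes of combined score, from low to high. For the narrow shared peaks the shares were 59.9%, 42.9%, 34.0% and 35.3%.

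Runs of wide domains were also counted. The gap between neighbouring wide domains had a median of 70.2 kb but a lower quartile of 7.21 kb. With gaps under 5 kb joined, 218 of the 584 domains (37.3%) fell into 88 runs of 2 or more, of which 57 had 2 domains, 22 had 3, 7 had 4 and 2 had 5. The remaining 366 stood alone. By the same rule, added after the data were seen, 1000 of the 2061 narrow shared peaks (48.5%) fell into 396 runs with each other, of up to 9 peaks. There were 3.53 narrow shared peaks for each wide domain, so the 2 shares differ in density and show nothing particular to wide domains.

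The 2 runs of 5 domains differed in form. On V, from 8414019 to 8427347, domains of 4623, 3083, 1216, 2361 and 1315 bp filled 94.5% of a 13329 bp span. All 5 lay in the single replicate 2 peak of 14295 bp described above, whose score was 172.87, while replicate 1 called 11 peaks with best scores between 69.05 and 1023.45. On IV, from 4014407 to 4028639, domains of 3046, 1478, 1126, 1062 and 1159 bp filled 55.3% of a 14233 bp span and met 4 replicate 2 peaks and 9 replicate 1 peaks. Their combined scores ran from 11.36 to 77.84, against 8.69 to 31.81 in the run on V. The run with the greatest domain length was that on II from 10541727 to 10560652, in which 4 domains filled 17173 bp of an 18926 bp span.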

How the data were processed

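The data are 3 deposited peak lists: 1 for each HTP-3 ChIP replicate and 1 combined list under the name of the series. The values are the authors' score per peak, of unstated scale. Per the file headers, coordinates are on WormBase WS220. BWA was the aligner, per the submitters' processing notes. The caller named in the deposited files was MACS for the replicates and MACS v2 for the combined list. Its threshold, its control and the making of the combined list were not given in the sources used here. Input values were not used here.

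Mitochondrial peaks were set aside. Overlap meant at least 1 bp in common. A chromosome's extent was the largest peak end in any list. Python 3.11.15 with numpy 2.4.6, pandas 2.3.3, statsmodels 0.14.6 and matplotlib 3.10.9 was used, and the overlap code was checked on simulated intervals. Shares carry 95% Wilson intervals, for counting error only. Depth is unknown. P-values were not computed: peaks are not replicates, and no test over the 2 ChIP libraries was run. Named regions were the 10 widest domains, the widest and the highest-scoring on each chromosome, the 3 nearest each side of 1000 bp and the largest run. The other run and peaks named were chosen after their values were seen. The domains and measures were chosen with earlier results of these data known.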

Additional observations from a re-analysis of the deposited data

Results flagged for a closer look

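Among the nuclear combined peaks of 1000 bp or more, 72 did not overlap a peak of both replicates and so entered no comparison above: 51 met replicate 2 only (median width 1177 bp, at most 2417 bp), 20 met replicate 1 only (median 1398 bp, at most 8356 bp) and 1 met neither. Of these, 4 measured 5000 bp or more, and none of the 4 met a replicate 2 peak, although replicate 2 had the broader peaks. They were on V at 14837663 to 14846018 (8356 bp, 8 replicate 1 peaks), on I at 15060403 to 15068012 (7610 bp, covered completely by 1 replicate 1 peak, near the right end of the chromosome), on V at 10470397 to 10477592 (7196 bp, 4 replicate 1 peaks) and on V at 14828423 to 14833698 (5276 bp, 1 replicate 1 peak). Their combined scores were 23.24, 5.44, 32.25 and 35.92.

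The mitochondrial genome, outside every comparison, carried 3 combined peaks of 1000 bp or more, of 6614, 3635 and 2137 bp. Replicate 1 had no mitochondrial peak, so none of them was shared.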

How the results depend on the processing

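Of 89 recomputed values, 48 stayed within the 95% interval of the reported share (or within 1.5 times the reported count) and 41 did not. The shares of domain length covered by a replicate are among them. They are not counts of domains, so such an interval is only a rough limit for them. No paired analysis was possible because the results come from peak lists with no test and no list of the input libraries was used. The settings reuse the same peaks. The excess of wide over narrow peaks in autosomal middle parts, 5.12 percentage points as reported, was absent without replicate 1 (48.93% of wide and 48.91% of narrow peaks). It was 3.70 to 8.64 points in the other 8 settings. In 1 of these (7.67 points) the score limit was put on narrow peaks only. The wide domains of the lowest score class, with 61.2% of the autosomal ones in the middle part, stayed in. That setting is therefore not a comparison at matched score. The excess in neighbours within 2 kb was 5.04 to 23.5 points in 8 settings, and X held the smaller share of wide domains in those 8. The value of 23.5 came from the same limit on narrow peaks only.

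With a minimum of 800 bp, 32.5% of shared peaks were wide and 24.8% of these met 2 or more replicate 1 peaks. With 1500 bp there were 274 wide domains, 10.4% of shared peaks; 51.5% met 2 or more replicate 1 peaks, and 45.4% of narrow peaks had a neighbour within 2 kb. With the highest-scoring 50% of each list, 34.6% of shared peaks were wide, 17.6% of wide domains met 2 or more replicate 1 peaks and 0% met 2 replicate 2 peaks. There 40.4% of autosomal narrow peaks lay in the middle part and 17.3% of narrow peaks on X, and neighbours stood near 45.2% of wide and 27.9% of narrow peaks. With at least 50% of the peak covered by each replicate, 19.7% of shared peaks were wide, 38.6% of wide domains met 2 or more replicate 1 peaks, replicate 1 covered 81.3% of their length, and 56.2% of wide and 37.1% of narrow peaks had near neighbours. With combined peaks under 500 bp apart joined there were 961 wide domains, 44.3% of shared peaks. Of these, 42.8% met 2 or more replicate 1 peaks and 4.27% 2 or more replicate 2 peaks; replicate 1 covered 50.6% and replicate 2 96.7% of their length; 31.7% of wide and 26.7% of narrow peaks had near neighbours, 40.5% of autosomal narrow peaks were in the middle part and 17.4% of narrow peaks on X. With the middle 50% of a chromosome as its centre, the shares were 70.3% for wide and 62.9% for narrow peaks. Narrow peaks scoring at least as high as the lower quartile of wide domains had 42.0% in the middle part and 37.3% with near neighbours.

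Asking support of 1 replicate only, without the other, the wide share was 8.94 to 20.2% and the middle-part share of narrow peaks 41.6 to 48.9%. Narrow peaks on X were 13.2 to 14.9%. Replicate 1 covered 68.7 to 73.0% and replicate 2 covered 94.6 to 99.2% of the domain length. Near neighbours stood by 62.1 to 85.2% of wide and 43.5 to 75.8% of narrow peaks. The higher values of near neighbours came without replicate 1, where more peaks counted as shared. Apart from such effects of construction, the cause was not tested. Depth is unknown, so it cannot be said which gaps within a domain it leaves uncalled.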
